A study of Sus scrofa with 14 samples.

Results

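Circular RNAs (circRNAs) were compared between brain stem and cortex of the pig at E115, an embryonic day (E) near term. These were 2 of the 14 samples of the series, 1 library of dissected brain stem and 1 of dissected cortex, and there was no replicate of either. Both were untreated embryonic tissue of Sus scrofa, and the labels give no breed, sex, number of animals or pooling. RNA longer than 200 nt was depleted of ribosomal RNA before the libraries were made, so linear and circular transcripts were sequenced together. The other libraries used here were basal ganglia, hippocampus and cerebellum at E60 and E115, brain stem at E60, and cortex at E42, E60, E80 and E100. CircRNAs were taken from the deposited table of 5 regions, on the 3776 of 3967 lines whose 10 library read counts added up to the total stated on the line.

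CircRNAs are closed loops that form when the spliceosome joins a downstream splice donor to an upstream acceptor. They lack free ends, are more stable than most linear transcripts and are abundant in neural tissue, often from genes with roles at the synapse. The brain stem links the forebrain to the spinal cord and holds cranial nerve nuclei, monoaminergic cell groups and early-myelinating tracts, while the cortex is a layered sheet of glutamatergic projection neurons and GABAergic interneurons.

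The brain stem library had a total of 37.7 M (1e6) reads and 5003 reads over backsplice junctions. The cortex library had 54.0 M reads and 8036 backsplice reads. The level of all circRNAs together was 133 reads per M library reads (RPM) in the brain stem (95% exact Poisson interval 129 to 137) and 149 RPM in the cortex (146 to 152). The brain stem was thus at 0.892 of the cortex level (exact conditional interval 0.861 to 0.925). These intervals, and all that follow, cover counting error only. With 1 library a side no spread between animals could be estimated and no p-value is given for the pair. In tissue of mixed cells, fewer cells of a type and less circRNA per cell cannot be told apart.

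The lists of detected circRNAs overlapped in part. Of 2498 circRNAs with a read in either library, 806 had at least 2 reads in the brain stem and 1200 in the cortex, and 423 had at least 2 in both. These 423 were 52.5% of the brain stem list and 35.3% of the cortex list. The overlap expected from sampling alone at these depths was not calculated, so these shares do not measure a difference between the regions. Drawn down to the 5003 reads of the brain stem, the cortex would be expected to show 773.5 circRNAs with at least 2 reads, against the 806 of the brain stem. By reads, 81.5% of the brain stem reads fell on circRNAs that also had a cortex read, and 71.7% of the cortex reads fell on circRNAs with a brain stem read. The 10 leading circRNAs of a library held 14.99% of the brain stem reads and 15.7% of the cortex reads.

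Single circRNAs were compared where the pair held at least 20 reads. This left 97 circRNAs, with 41.1% of the brain stem reads and 41.4% of the cortex reads. A circRNA was counted as past the fold when its levels differed at least 2-fold and the 95% exact interval of the ratio lay on 1 side of 1. By this rule 14 circRNAs were higher in the brain stem (14.4% of those tested) and 22 were higher in the cortex (22.7%), 37.1% together, and 61 were not past it. The median log2 ratio of brain stem over cortex was -0.09, with 41 circRNAs above 0 and 56 below. Scaled to the circRNA reads of either library instead of all its reads, which shifts the median to 0.07, the counts were 21 higher in the brain stem and 19 in the cortex. The direction of the excess thus depended on the scaling, while the 14 brain stem calls and 19 of the 22 cortex calls were kept under it.

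**Figure D1:**
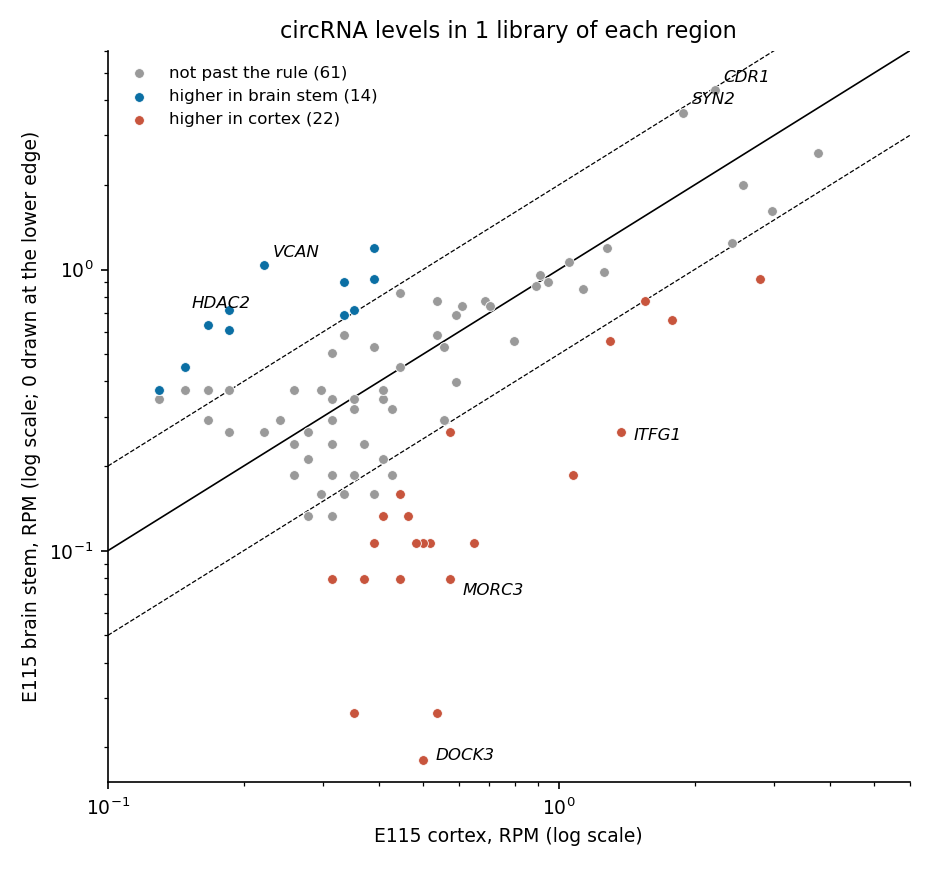
Level of each of the 97 circRNAs with at least 20 reads in the E115 cortex library (x axis, RPM, log scale) and the E115 brain stem library (y axis, RPM, log scale); the solid line marks equal levels and the dashed lines a 2-fold difference. The 22 circRNAs higher in cortex reach farther from the line than the 14 higher in brain stem, with DOCK3 at 0 reads in the brain stem. The cortex library is the deeper one, and the minimum of 20 reads is not adjusted for that.

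Among circRNAs higher in the brain stem, the largest ratio was that of VCAN, the gene for versican, a proteoglycan of the extracellular matrix. Its circRNA (chromosome 2, 93851810–93857047, build Sscrofa10.2, plus strand) had 39 reads in the brain stem and 12 in the cortex, or 1.04 RPM (0.736 to 1.42) and 0.222 RPM (0.115 to 0.388). The brain stem level was 4.66 times the cortex level (2.39 to 9.77). In the other E115 regions the VCAN circRNA stood at 0.724 RPM in basal ganglia, 0.828 in cerebellum and 1.14 in hippocampus, so the cortex was the low library among the 5. In the cortex itself its level was 5.88 RPM at E42, 0.713 at E80 and 0.350 at E100, values from the separate cortex table.

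A circRNA of PHIP, which encodes a bromodomain protein that binds the insulin receptor substrate, had 27 reads in the brain stem and 10 in the cortex (chromosome 1, 97905979–97924771, plus strand). Its levels were 0.717 and 0.185 RPM, a ratio of 3.87 (1.82 to 8.96). HDAC2, a class I histone deacetylase of corepressor complexes, had a short circRNA of 283 bp genomic span (chromosome 1, 89940534–89940816, minus strand) with 24 brain stem reads and 9 cortex reads, or 0.637 and 0.167 RPM. This was a ratio of 3.82 (1.72 to 9.35). In the cortex of earlier stages the same circRNA stood at 14.5 RPM at E60, 1.31 at E80 and 1.05 at E100. The level of all circRNAs in the cortex was also higher at E60, at 685 RPM against 149 at E115.

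The circRNA with most reads among those higher in the brain stem came from a locus on chromosome 17 (13778285–13801776, plus strand) that overlaps 3 Ensembl genes with no symbol, ENSSSCG00000022028, ENSSSCG00000027808 and ENSSSCG00000030541. It had 45 reads in the brain stem and 21 in the cortex (1.19 and 0.389 RPM), a ratio of 3.07 (1.79 to 5.43). The cortex was again the lowest of the 5 regions at E115, where this circRNA stood at 2.27 RPM in basal ganglia, 2.29 in cerebellum and 2.36 in hippocampus. A circRNA of ENSSSCG00000006881 had 34 and 18 reads (ratio 2.71, 1.49 to 5.09) and one over ENSSSCG00000016767 and ENSSSCG00000020787 on chromosome 18 had 35 and 21 (ratio 2.39, 1.35 to 4.32).

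The remaining brain stem circRNAs named by the rule rested on fewer reads or smaller ratios. ALMS1, a centrosome and basal body protein, and NDUFB9, an accessory subunit of respiratory complex I, each had a circRNA with 17 reads in the brain stem and 8 in the cortex (ratio 3.05, 1.246 to 8.16). C9orf40 had 14 and 7 reads (ratio 2.87, 1.08 to 8.39). PSIP1, a chromatin-bound coactivator, had 26 and 18 reads (ratio 2.07, 1.09 to 4.01), and ENSSSCG00000025212 had 27 and 19 (ratio 2.04, 1.09 to 3.88). The near bounds of these intervals lay close to 1.

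On the cortex side larger ratios were more frequent: 12 of the 22 differed at least 4-fold, against 1 of the 14 on the brain stem side. These counts are not adjusted for depth. The cortex library was the deeper one (54.0 against 37.7 M reads). A circRNA high in the cortex alone therefore reached the minimum of 20 reads at a lower level than one high in the brain stem alone. DOCK3, a guanine nucleotide exchange factor for Rac that is known from neurons, had a circRNA (chromosome 13, 36383856–36428161, plus strand) with 27 reads in the cortex, 0.5001 RPM (0.330 to 0.728), and 0 in the brain stem. A count of 0 allows up to 3 reads, which is 0.0797 RPM in that library, and the cortex point estimate was 6.28 times that limit. With the counting error of the cortex included, the exact interval put the cortex at least 4.77-fold higher. At E115 the DOCK3 circRNA also had 0 reads in basal ganglia and hippocampus and 2 in cerebellum. The cortex series listed it at 0.150 RPM at E80 and 0.165 RPM at E100, below the E115 level.

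ITFG1, an integrin alpha FG-GAP repeat protein of the cell surface, had a long circRNA (chromosome 6, 32504719–32587225, minus strand) with 10 reads in the brain stem and 74 in the cortex. Its levels were 0.266 RPM (0.127 to 0.488) and 1.37 RPM (1.08 to 1.72), and the cortex was 5.16 times the brain stem (2.66 to 11.2). The other E115 regions lay between 0.262 RPM in hippocampus and 0.573 in cerebellum. In the cortex the ITFG1 circRNA stood at 0.599 RPM at E42, 0.701 at E60, 1.05 at E80 and 1.24 at E100, an order that follows the stage.

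MORC3, a nuclear ATPase of the MORC family found at PML bodies, had a circRNA (chromosome 13, 210039530–210045037, plus strand) with 3 reads in the brain stem and 31 in the cortex, a ratio of 7.21 (2.25 to 36.8). Unlike ITFG1, its cortex level was higher at earlier stages, with 5.84 RPM at E60, 1.35 at E80 and 0.577 at E100 against 0.574 at E115. All circRNAs of the cortex together also fell, from 685 RPM at E60 to 149 at E115. TLK1, a nuclear serine/threonine kinase that acts on histone chaperones, had cortex-high circRNAs from 86639052 (25 and 96 reads; ratio 2.68, 1.71 to 4.34) and from 86622619 (29 and 84 reads; ratio 2.02, 1.31 to 3.198), both ending at 86671532 on chromosome 15 (minus strand). The second was the call closest to the 2-fold line, and was under it when scaled by circRNA reads.

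Several cortex-high circRNAs came from genes with no symbol. The most abundant, from ENSSSCG00000028803 (chromosome 16, 4004000–4095662, minus strand), had 35 reads in the brain stem and 151 in the cortex. Its levels were 0.929 RPM (0.647 to 1.29) and 2.80 RPM (2.37 to 3.28), a ratio of 3.01 (2.07 to 4.48). In the other E115 regions it lay at 0.310 RPM in basal ganglia, 0.262 in hippocampus and 1.15 in cerebellum, so the cortex was the highest of the 5. ENSSSCG00000014268 (chromosome 2, 139227898–139244383) had 7 and 58 reads, a ratio of 5.78 (2.63 to 15.01), and ENSSSCG00000027460 (chromosome 5, 60475998–60517522) had 4 and 35, a ratio of 6.10 (2.18 to 23.6). Cerebellum at E115 held 1.21 RPM of the ENSSSCG00000014268 circRNA, within the interval of the cortex (0.816 to 1.39).

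The other cortex-high circRNAs named by the rule were a FAM188A circRNA with 4 and 27 reads (ratio 4.71, 1.64 to 18.5), a circRNA over the CELSR3 and PRKAR2A genes with 1 and 19 reads, and one on chromosome 8 that overlaps a gene listed as U6 with 3 and 24. FAM188A encodes a deubiquitinase, CELSR3 an atypical cadherin that guides axons, and PRKAR2A a regulatory subunit of protein kinase A. Over all 36, the summed reads were 356 in the brain stem and 175 in the cortex for the 14, and 187 and 939 for the 22.

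**Figure D2:**
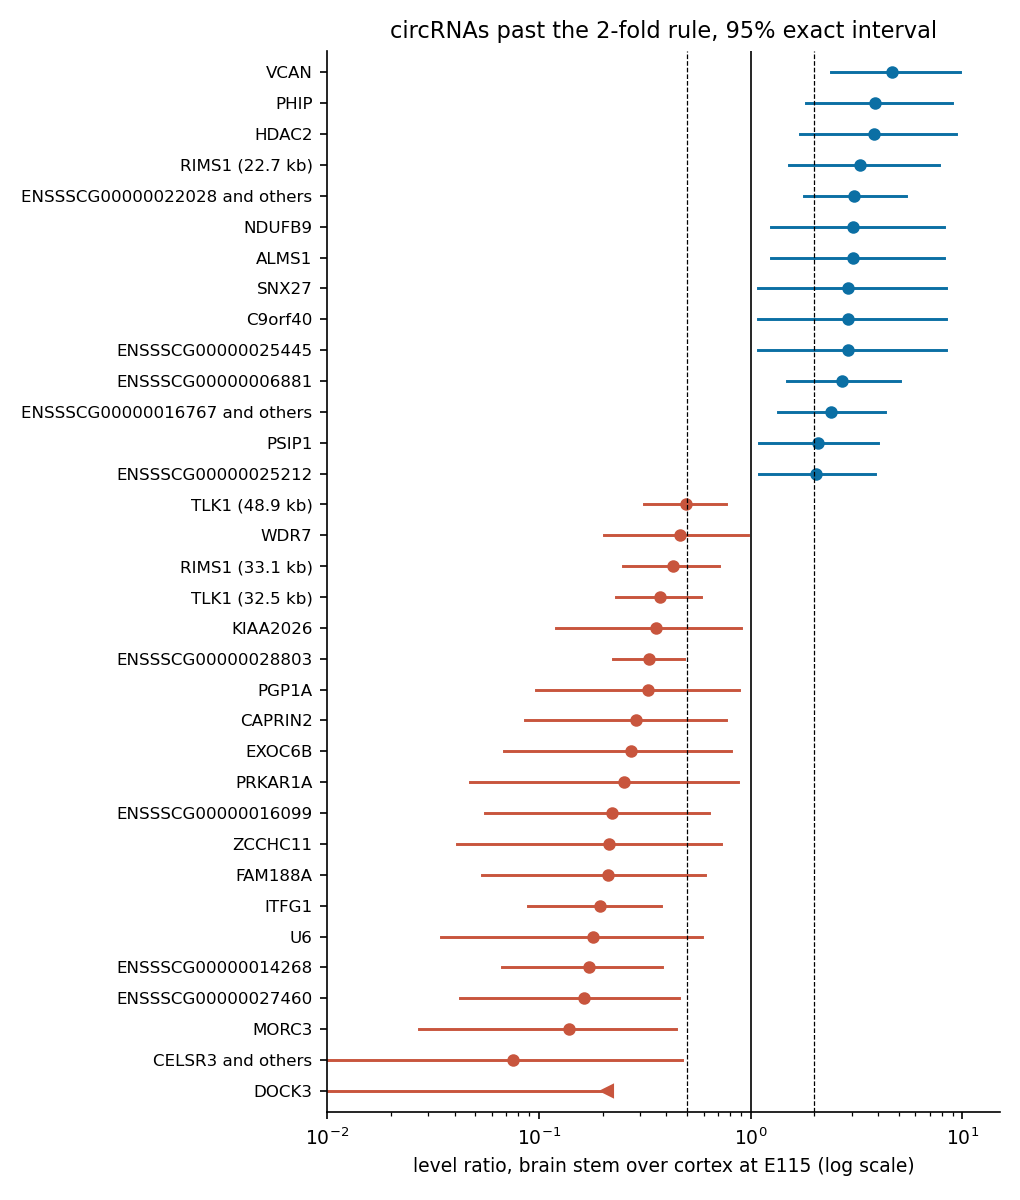
Level ratio of brain stem over cortex at E115 (x axis, log scale) with its 95% exact interval for the 14 circRNAs higher in brain stem (blue) and 20 of the 22 higher in cortex (red); circRNAs that share a host name are told apart by their genomic span. The solid line is a ratio of 1, the dashed lines are 2-fold, the arrow for DOCK3 marks an upper bound at 0 reads, and intervals that run past 0.01 are drawn to the left edge.

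The 2-fold threshold left out 6 circRNAs whose intervals lay on 1 side of 1, with 3 in each direction. CDR1, the locus known from human and mouse for an abundant circRNA with many sites for miR-7, was the leading circRNA of the brain stem. The line at CDR1 (chromosome X, 131493485–131495109, listed on the plus strand) had 164 reads in the brain stem and 120 in the cortex, 4.35 RPM (3.71 to 5.07) and 2.22 RPM (1.84 to 2.66), a ratio of 1.96 (1.54 to 2.50). SYN2, a synaptic vesicle phosphoprotein of the synapsin family, had 136 and 102 reads, 3.61 and 1.89 RPM, a ratio of 1.91 (1.47 to 2.50). Scaled by circRNA reads, both CDR1 and SYN2 were past the 2-fold rule. PPA2 was the third on the brain stem side at 31 and 24 reads, a ratio of 1.85.

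For CDR1 the brain stem was not the high region: cerebellum at E115 held 18.8 RPM. For SYN2 it was, as the other E115 regions held 0.573 RPM in cerebellum, 0.699 in hippocampus and 2.17 in basal ganglia. At E60 the SYN2 circRNA had 0 to 4 reads in each of the 5 regions, and in the cortex it stood at 0.488 RPM at E80 and 1.01 at E100. On the cortex side, the circRNAs left out in this way were those of ENSSSCG00000025844 at 47 and 131 reads (ratio 1.94, 1.38 to 2.77), RIMS2 at 61 and 160 (1.83, 1.35 to 2.50) and ENSSSCG00000026340 at 98 and 203 (1.45, 1.13 to 1.86). RIMS2 encodes a scaffold of the presynaptic active zone. Just inside the threshold stood TLK1 at 2.02, ENSSSCG00000025212 at 2.04 and PSIP1 at 2.07.

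Other abundant circRNAs had intervals that include 1. CSPP1, a centrosome and spindle pole protein, had 75 reads in the brain stem and 138 in the cortex (ratio of brain stem over cortex 0.779, 0.580 to 1.04). CDK13, a kinase of the RNA polymerase II tail, had 45 and 69 reads (0.935, 0.627 to 1.38), and RELN, the secreted guidance glycoprotein reelin, had 37 and 68 (0.780, 0.508 to 1.18). RBM6, an RNA-binding splicing regulator, had 36 and 49 reads (1.05, 0.665 to 1.65). For CDK13, RELN and RBM6 these intervals exclude a 2-fold difference in either direction.

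Rare circRNAs could be one-sided without being comparable. With at least 2 reads in 1 library and 0 in the other, there were 246 of 806 circRNAs in the brain stem and 601 of 1200 in the cortex. Of these, 24 and 51 had at least 5 reads. The cortex library held more circRNA reads, 8036 against 5003, and these counts are not adjusted for that depth. The brain stem circRNA with most reads and 0 in the cortex was at NSL1, a kinetochore protein, with 11. The cortex one after DOCK3 was at ENSSSCG00000007833, with 13. NSL1 and ENSSSCG00000007833 were picked after their values were seen and lie under the minimum of 20 reads.

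When the reads of all circRNAs of a host were summed, 126 hosts had at least 20 reads, of which 15 were higher in the brain stem (11.9%) and 23 in the cortex (18.3%). Of the 15, 10 also had a single circRNA past the rule in that direction, and of the 23, 14 did. The 5 brain stem hosts past the rule on summed reads only were KAT6B, TBC1D22A, DTNB (with ENSSSCG00000027338), NAA15 and ENSSSCG00000021829, which lie outside the naming rule. KAT6B, a histone acetyltransferase, had 18 and 6 reads over 3 circRNAs (ratio 4.30), and NAA15, the auxiliary subunit of the N-terminal acetyltransferase NatA, had 19 and 12 over 7 (ratio 2.27). Among the 9 cortex hosts of that kind, ATRX, a chromatin remodeller, had 12 and 45 reads over 6 circRNAs. HDAC2 stayed past the rule at 24 and 16 reads (2.15, 1.10 to 4.33), with a near bound close to 1.

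RIMS1, which encodes another active zone scaffold, had circRNAs past the rule in opposite directions. The circRNA from 58468249 to 58490977 on chromosome 1 (plus strand) had 23 reads in the brain stem and 10 in the cortex, a ratio of 3.30 (1.51 to 7.76). The one from 58484449 to 58517592 had 21 and 70, with the cortex at 2.33 times the brain stem (1.41 to 3.99). Summed over its 11 circRNAs RIMS1 had 66 and 116 reads, a ratio of brain stem over cortex of 0.816 (0.594 to 1.11). That interval includes 1, while the single junctions differed in opposite directions.

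Such shares within a host do not depend on the library totals. Among 27 hosts with at least 20 circRNA reads in each library, 103 circRNAs had a read in the pair, and the exact intervals of the shares lay apart for 7 of them (6.8%), from 4 hosts. For RIMS1 the junction at 58468249 held 34.8% of the host's reads in the brain stem (23.5 to 47.6) and 8.62% in the cortex (4.21 to 15.3), and the junction at 58484449 held 31.8% (20.9 to 44.4) and 60.3% (50.8 to 69.3). In the cortex of other stages the RIMS1 junction at 58484449 held 53.4% at E60, 63.6% at E80 and 65.2% at E100. In the E115 cerebellum it held 25.5% of 98 reads (17.2 to 35.3), near the brain stem, while basal ganglia and hippocampus at E115 had 17 and 14 RIMS1 reads and wide intervals.

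FAM188A also used its junctions in different proportions, with the circRNAs sharing the start at 50688302 on chromosome 10 (plus strand). The one that ends at 50723087 held 10% of 40 reads in the brain stem (2.79 to 23.7) and 44.3% of 61 in the cortex (31.5 to 57.6). The one that ends at 50717769 held 35% (20.6 to 51.7) and 6.56% (1.82 to 15.9). The longer FAM188A circRNA held 26.6% of reads in the E60 cortex, 31.7% at E80 and 26.8% at E100, and 7.69% to 16.7% in the other E115 regions.

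For TLK1 the junction from 86637917 held 33.3% of 87 reads in the brain stem (23.6 to 44.3) and 15.7% of 235 in the cortex (11.3 to 21.04), and this TLK1 circRNA had 29 and 37 reads (ratio 1.12, an interval that includes 1) beside the pair that was higher in cortex. Its share in the cortex was 10.3% at E60, 12.2% at E80 and 14.1% at E100. At the CELSR3 and PRKAR2A locus the circRNAs start at 34615712 on chromosome 13 and end at 34655067 or 34655070. The first held 1 of 27 reads in the brain stem (3.70%) and 19 of 51 in the cortex (37.3%). The spans differ by only a few bases, 39356 and 39359 bp, and whether reads were assigned to the right end was not tested. The locus as a whole had a ratio of brain stem over cortex of 0.759 (0.458 to 1.23). The fifth host by the same ordering, RIMS2, had intervals that touched: its circRNA from 35844936 to 35890743 held 13.1% of 84 reads in the brain stem and 3.21% of 187 in the cortex.

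**Figure D3:**
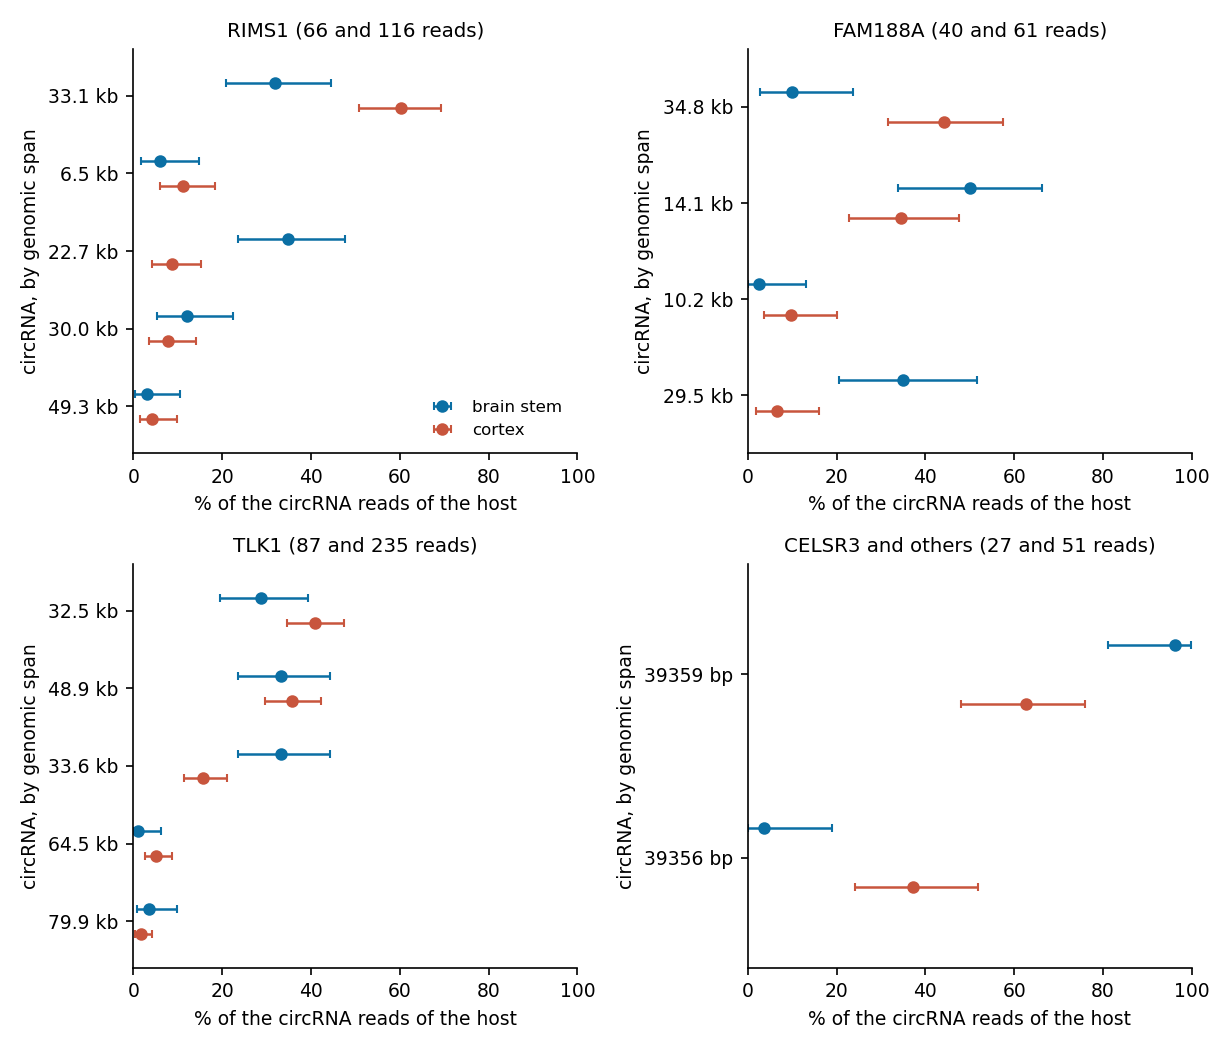
Share of a host's circRNA reads held by each circRNA (x axis, percent, with 95% exact intervals) in the E115 brain stem (blue) and cortex (red) for the 4 hosts with intervals apart; circRNAs with at least 5 reads over the pair are shown and named by genomic span. The RIMS1 circRNA of 33.1 kb and the FAM188A circRNA of 34.8 kb hold larger shares in cortex, and the TLK1 circRNA of 33.6 kb holds a larger share in brain stem.

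The sets picked in the E115 pair were then followed through the other libraries. The 14 brain stem circRNAs held 7.12% of circRNA reads in the E115 brain stem (6.42 to 7.86) and 2.18% in the E115 cortex (1.87 to 2.52), values that the choice of members fixes. In libraries not used for the choice they held 7.09% in basal ganglia (5.71 to 8.68), 6.14% in hippocampus (5.06 to 7.38) and 3.86% in cerebellum (3.39 to 4.38) at E115. At E60 they held 3.67% in the brain stem (2.22 to 5.67) and 4.51% in the cortex (4.18 to 4.85), or 2.90% (1.63 to 4.73) and 2.39% (2.14 to 2.65) without the HDAC2 circRNA. None of the E115 regions outside the pair was as low as the E115 cortex, whose low share the choice of members fixes.

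The 22 cortex circRNAs held 11.7% of circRNA reads in the E115 cortex (10.99 to 12.4) and 3.74% in the E115 brain stem (3.23 to 4.30), values that the choice of members also fixes. At E60 they held 7.34% in the cortex (6.92 to 7.77), against 3.27% to 5.02% in the other 7 libraries of the table outside the pair. The interval of the E60 brain stem, at 5.02% of 518 reads, ran from 3.30 to 7.27 and overlapped that of the E60 cortex. In the separate cortex table, where the denominator holds more circRNAs, the share was 7.15% at E80, 7.05% at E100 and 8.05% at E115.

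**Figure D4:**
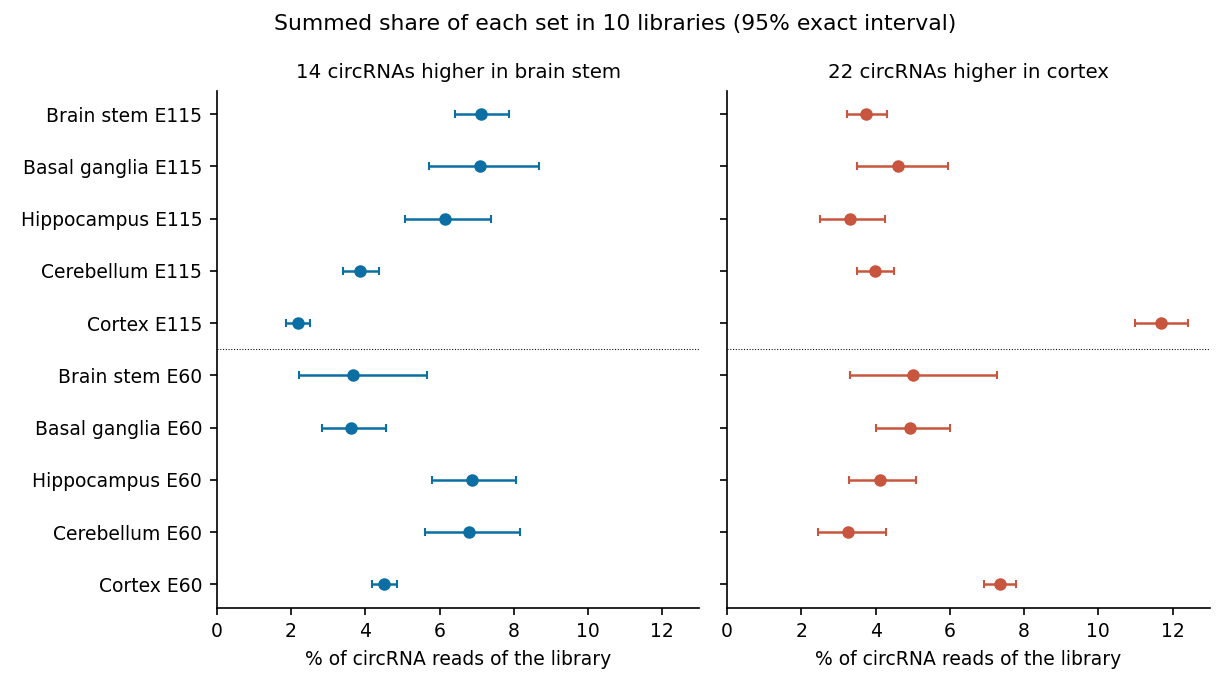
Share of all circRNA reads of a library (x axis, percent, with 95% exact intervals) held by the 14 circRNAs higher in brain stem (left) and the 22 higher in cortex (right), in the 10 libraries of the regions table; the dotted line parts E115 from E60. The 22 hold 11.7% in the E115 cortex and 7.34% in the E60 cortex, and the 14 hold 2.18% in the E115 cortex, the lowest point of the left panel. The choice of members fixes the E115 brain stem and E115 cortex points of both panels.

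Ordered over the 5 regions at E115, the E115 cortex was the highest library for 14 of the 22 cortex circRNAs and cerebellum for the other 8, and the brain stem was the lowest for 6. For the 14 brain stem circRNAs, the brain stem was the highest library for 4, cerebellum for 6, hippocampus for 3 and basal ganglia for 1, and the cortex was the lowest for 9. The choice of members from this pair fixes part of these ranks. By that choice the brain stem could not be highest for the 22, nor the cortex for the 14. Over all 97 tested, cerebellum was highest for 48, cortex for 24 and brain stem for 10. The cerebellum library had the highest total circRNA level at E115, 386 RPM.

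Host lists were drawn up by function and cell type and are described by their counts, beside 14.4% and 22.7% past the rule and a median of -0.09 over all tested. The synapse list had 9 circRNAs tested, of which 1 was higher in the brain stem and 1 in the cortex (both RIMS1) and 7 were not past the rule, with a median log2 ratio of -0.12. Synapse hosts held 8.24% of circRNA reads in the brain stem (7.49 to 9.03) and 7.64% in the cortex (7.07 to 8.24), and their summed level ratio was 0.962 (0.847 to 1.09). Without SYN2 that ratio was 0.773 (0.665 to 0.896). GRIN2B, a subunit of the NMDA receptor, had 14 and 9 (2.23, 0.899 to 5.84).

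Chromatin and RNA-binding hosts had lower summed levels in the brain stem. Chromatin hosts had 194 and 358 reads (ratio 0.777, 0.649 to 0.928), with HDAC2 higher in the brain stem, MORC3 higher in the cortex and 4 of 6 tested not past the rule, and a median log2 ratio of -0.45. RNA-binding and splicing hosts had 139 and 258 reads (0.772, 0.624 to 0.953). As shares of circRNA reads the regions were closer, at 3.88% (3.36 to 4.45) and 4.45% (4.01 to 4.93) for chromatin and at 2.78% (2.34 to 3.27) and 3.21% (2.84 to 3.62) for RNA binding, with intervals that overlap.

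Axon guidance and migration hosts held 3.04% of reads in the brain stem (2.58 to 3.55) and 2.36% in the cortex (2.04 to 2.72), intervals that overlap. The summed level ratio was 1.15 (0.920 to 1.43), and 0.898 (0.700 to 1.15) without the VCAN circRNAs, an alternative chosen after seeing the data, which left 109 and 174 reads. Among 4 tested, the VCAN circRNA was higher in the brain stem and 1 junction of the CELSR3 locus was higher in the cortex. Ion channel, ubiquitin, cytoskeleton and cell cycle hosts had no circRNA past the rule among 2, 2, 1 and 1 tested. Their summed level ratios were 0.812, 0.832, 0.792 and 0.777, each with an interval that includes 1. Without its leading CDK13 circRNA (45 and 69 reads) the cell cycle list stood at 0.490 (0.240 to 0.941), on 13 and 38 reads. These still include other CDK13 circRNAs, as CDK13 summed over its 5 circRNAs had 49 and 91 of the 58 and 107 reads of the list. The list without all CDK13 circRNAs was not tested. Hosts known for circRNAs in several mammals, a list that overlaps the synapse list, had 2 circRNAs higher in the brain stem and 3 in the cortex among 13 tested, and a summed ratio of 0.904 (0.816 to 0.9998), or 0.758 (0.675 to 0.850) without CDR1.

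**Figure D5:**
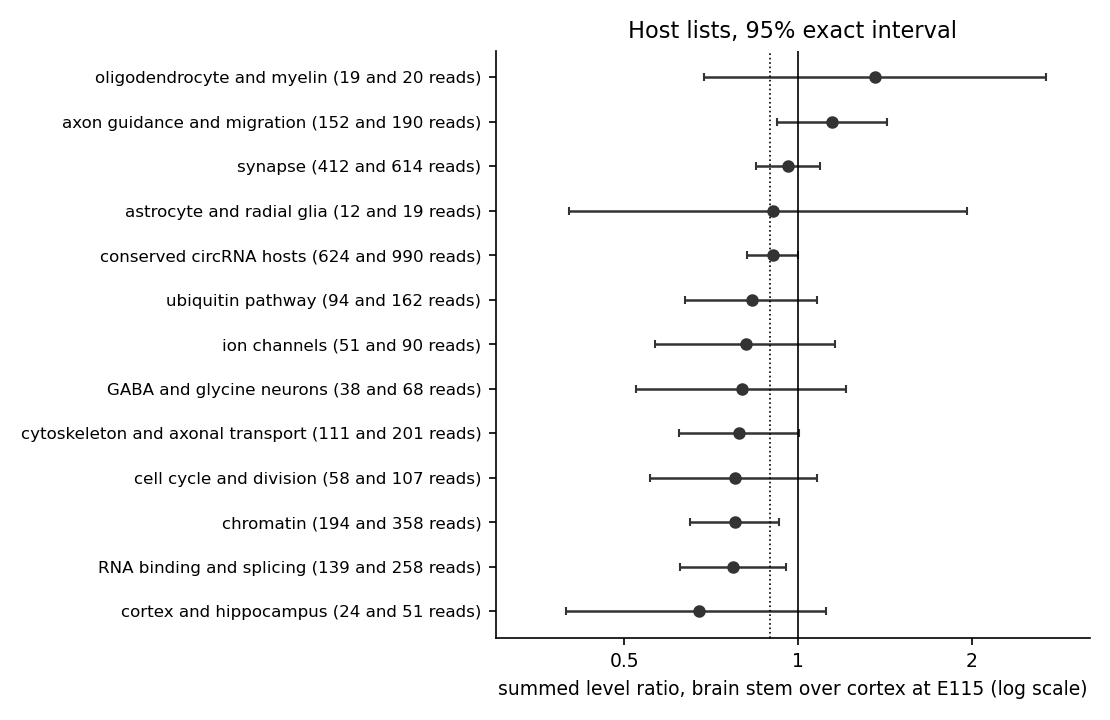
Summed circRNA level ratio of brain stem over cortex at E115 (x axis, log scale, with 95% exact intervals) for the 13 host lists with at least 20 reads over the pair; the solid line is 1 and the dotted line is the ratio of all circRNAs, 0.892. The intervals of the chromatin and RNA binding lists lie below 1, and that of the conserved circRNA hosts ends at 0.9998.

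Cell type lists rested on few reads. Oligodendrocyte and myelin hosts had 19 reads in the brain stem and 20 in the cortex (ratio 1.36, 0.688 to 2.69). Of these, QKI, an RNA-binding protein of myelinating glia, had 13 and 11. SIRT2, a deacetylase of oligodendrocytes, had 4 and 0, while OMG had 2 and 8 and ENPP2 had 0 and 1. Hosts that mark cortex and hippocampus had 24 and 51 reads (0.675, 0.397 to 1.12), with ARPP21 at 6 and 16, NELL2 at 5 and 10 and CAMK2A at 3 and 8. MYT1L (with ENSSSCG00000008652) went the other way at 5 and 2. Astrocyte and radial glia hosts had 12 and 19 reads, GABA and glycine neuron hosts 38 and 68, nearly all RELN, and vascular, blood, microglia, meninges and choroid plexus hosts 0 and 3. Of 63 genes that mark the hindbrain and brain stem, 1 was a host in the table (EBF1) and it had 0 reads in both libraries. The label of the brain stem could therefore not be checked by its markers in the circRNA reads.

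Genomic span, weighted by reads, differed slightly between the libraries. CircRNAs spanning 40 kb or more held 21.1% of reads in the brain stem (20.003 to 22.3) and 25.1% in the cortex (24.2 to 26.1), and those of 1 to 5 kb held 19.1% (18.03 to 20.2) and 16.6% (15.8 to 17.4). Single abundant circRNAs weigh in the longest class, which had 1057 and 2017 reads. ENSSSCG00000028803 had 35 and 151 of these and RIMS2 had 61 and 160, while PPA2 leaned to the brain stem at 31 and 24. Shares without such circRNAs were not calculated. The median span was 16.2 kb for the 14 brain stem circRNAs, 30.2 kb for the 22 cortex circRNAs and 18.8 kb for all tested.

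For scale, the same rule was applied to other pairs of single libraries. Between E100 and E115 cortex, 26 of 216 circRNAs were past it (12%), 21 higher at E100 and 5 at E115; these differ in stage and are no replicates. At E60, 122 of 124 were past it between brain stem and cortex (98.4%), all higher in the cortex, where the E60 brain stem had 39.2 RPM of circRNAs against 685 in the E60 cortex. The E60 brain stem had 518 circRNA reads, and 35.9% of its reads stood on lines left out.

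A test was possible only with E60 and E115 of a region standing in for each other. In edgeR's quasi-likelihood test over 10 libraries, with region and day as terms, 0 of 387 circRNAs (0%) differed between brain stem and cortex at an adjusted p of 0.05. At an unadjusted p under 0.05 there were 29, and the smallest adjusted p by edgeR was 0.551. Of the circRNAs above, MORC3 had the lowest unadjusted p (0.00207, log2 difference of brain stem minus cortex -5.92). All 14 circRNAs higher in the E115 brain stem had log2 differences below 0 in this fit, from -3.51 for HDAC2 (unadjusted p = 0.0263 by edgeR) to near 0 for VCAN, with a median of -1.31. The 22 higher in the E115 cortex had log2 differences from -5.92 to -1.97, with a median of -3.01. The fit includes the E115 brain stem and cortex libraries, so the choice of members fixes part of the gap between these medians. CDR1 stood at 0.95 (adjusted p = 0.629 by edgeR) and SYN2 at 0.86 (adjusted p = 0.687 by edgeR), against a median of -2.28 over all circRNAs. DESeq2 with library totals called 5, all higher in the cortex, and DESeq2 with its own size factors called 0. Without the E115 cortex library 54 were called, all higher in the cortex, in a comparison that then rests on the E60 cortex alone.

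FPKM values of the host genes stand beside the circRNA reads in the deposited table, but their headings are in doubt. Over 1446 hosts found in both tables, the E115 cortex FPKM of the cortex table had a Spearman's rho of 0.71 with the column headed cortex E115 in the regions table and of 0.96 with the column headed hippocampus E115. Which FPKM column belongs to which region was thus uncertain. With the column headed brain stem E115 set over the E115 cortex of the cortex table, on a log2(FPKM + 1) scale across separately made tables, the median was -0.21 for 10 hosts of the brain stem circRNAs. It was -0.42 for 19 hosts of the cortex circRNAs and -0.39 for all 1445 hosts. If the heading is wrong, these values belong to another region. The read counts did not share this problem for the cortex: E115 cortex reads were identical in both tables for 2341 of 2341 circRNAs that added up in both.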

How the data were processed

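Whole-number counts of backsplice reads, 1 column for each library, stand in the deposited tables of the cortex series and of the regions. The RPM columns beside them (reads per M library reads) are the authors' own calculation, per the file headers. The library totals used here are the median of reads over RPM where reads exceeded 1. The deposited FPKM columns describe the host genes, and their headings are in doubt, so host ratios are given as medians only, with 1 added to each FPKM. Other deposited columns give distinct junction reads and genomic length, per the file headers. The submitters' processing notes name Trim Galore, TopHat2, Cufflinks, Cuffdiff and the build Sscrofa10.2 (susScr3); the circRNA caller is not given in the sources used here. Junction ends were not placed in exons, introns or UTRs.

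Headings tied each column to a sample, and 0 value columns had none. Lines whose library reads did not add up to their stated total (191) were left out, which removed 340 reads of the E115 brain stem and 811 of the E115 cortex. Positions count from 1. Host names are those of the table, set by overlap; 184 of 471 Ensembl IDs had a symbol in the name tables, and 5 names at several places (U6 and others) were left out of sums and shares within hosts. Overlapping genes cannot be told apart.

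Ratios of levels have 95% exact conditional intervals and shares 95% exact (Clopper-Pearson) intervals. They reflect the counting error of reads alone. No molecular identifiers are described for these libraries, so reads copied from the same molecule would count as separate and the intervals may be too narrow. A circRNA counted as past the fold with at least 20 reads over the pair, a ratio of at least 2 and an interval on 1 side of 1. The edgeR fit (4.0.16, R 4.3.3, Benjamini-Hochberg adjustment) used circRNAs with at least 20 reads over 10 libraries, library totals, and region and day as terms, with 4 residual degrees of freedom; DESeq2 1.42.0 was an alternative. Its spread is that of region by day, not of animals. Intervals used Python 3.11.15 with scipy 1.17.1, and both calculations were tested on simulated data. Log2 ratios had 0.5 reads added to both sides.

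Named circRNAs were the 12 in each direction whose interval stayed farthest from 1, the 10 with most reads, the 2 leading members of each list and the 5 hosts with the largest difference in shares; 2 circRNAs that the rule picked are not reported here. The pair, the lists and the rules were chosen with earlier results of these data known.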

Additional observations from a re-analysis of the deposited data

Results flagged for a closer look

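The HDAC2 circRNA (chromosome 1, 89940534–89940816) differed between brain stem and cortex in opposite directions at the 2 days, as shares of circRNA reads. At E115 it had 24 of 5003 reads in the brain stem and 9 of 8036 in the cortex, a ratio of shares of 4.28 (exact interval 1.92 to 10.47). At E60 it had 4 of 518 reads in the brain stem and 311 of 14671 in the cortex, a ratio of 0.364 (0.0986 to 0.942). The difference between the days was not tested. Of the 36 circRNAs past the 2-fold rule at E115, it was the only one whose E60 interval lay wholly on the other side of 1, and most of the others had 0 to 3 reads in the E60 brain stem.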

How the results depend on the processing

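The counts of circRNAs past the 2-fold rule, 14 higher in the brain stem and 22 in the cortex, depended on the threshold. With a minimum of 10 reads they were 26 and 37, with 50 reads 4 and 6, and at 4-fold 1 and 12. With a 99% interval 7 were higher in the brain stem and 17 in the cortex. On all lines they were 14 and 25, at 1.5-fold 17 and 24, and scaled by the median ratio 18 and 20. No called circRNA changed direction under another scaling or on all lines; of 53 named ones, 1 (TLK1 from 86622619) was lost and 2 (CDR1 and SYN2) were gained under either scaling. The total level ratio was 0.866 on all lines and shares within hosts lay apart for 7 circRNAs there too. Of the list ratios, 3 moved without their leading member and 9 did not; that of axon guidance moved without VCAN.

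Over both days, edgeR called 0 circRNAs, as did TMM factors, no minimum, all lines and the 4 brain stem and cortex libraries alone; DESeq2 with library totals called 5. Leaving out each library in turn gave 0 to 54, with 54 without the E115 cortex. The causes were not tested.

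No paired analysis was possible because each region and day has 1 library, so no replicate numbers are shared beyond the single library of a group. Depth limits the pair: a count of 0 allows 0.0797 RPM in the brain stem and 0.0556 RPM in the cortex.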
